A study of Homo sapiens with 7 samples.

Results

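MicroRNAs captured with the ODD probe set were compared with those captured with the EVEN probe set, both made to pull down BRAF-X1 through its 3' UTR. X1 is an isoform of the mRNA that encodes BRAF, a kinase of the MAPK pathway. The libraries were chosen by their labels and not by any measured value: 6 of the 7 libraries of the series, 3 ODD and 3 EVEN, entered the comparison, and the single library made with scrambled probes was left out of the fit. All 6 came from A375, an established human melanoma cell line with a mutated BRAF gene. The labels name no drug or genetic change; the cells of every group were harvested 24 h after seeding and fixed for 10 min with 1% formaldehyde. By the labels the groups differ in the probes used. How the probes were divided between the sets is not stated. The captures of a set are described as independent, without saying whether they came from separate cultures, so the p-values cover no more than variation between captures. Those of limma also borrow variance from other microRNAs (4 residual and 41.8 prior degrees of freedom), so they do not rest on the spread of a microRNA's own captures alone.

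In miR-CATCH, crosslinked cell lysate is mixed with tagged DNA probes that pair with a chosen mRNA, the mRNA is pulled down, and the microRNAs that come with it are sequenced. A microRNA is held on its target by an Argonaute protein and finds it mainly through its seed, bases 2 to 8 from the 5′ end. In captures of this kind, probe sets that pair with different stretches of one transcript serve as checks on each other, since an RNA that is held by the transcript is recovered by both, while an RNA that pairs with a probe is recovered by the set that holds that probe.

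Across the 237 microRNAs tested, 1 differed between the probe sets: let-7f-5p was lower with ODD than with EVEN probes. No microRNA was called higher with ODD probes. The calls made up 0.422% of the tested microRNAs in the lower direction and 0% in the higher direction (limma, adjusted p under 0.05). An earlier look at these data had singled out let-7f-5p, so its call is not an independent test. let-7f-5p belongs to the let-7 family, microRNAs known for repressing RAS genes, HMGA2 and LIN28 and for low levels in many tumours. The family members share 1 seed, and 3 of them differ from let-7a-5p, the most abundant member, by a single base. These 4 are shown because the result turns on telling them apart; capitals mark the base that differs from let-7a-5p, counted from 1 at the 5′ end.
let-7a-5p: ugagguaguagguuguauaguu
let-7f-5p: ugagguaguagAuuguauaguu
let-7e-5p: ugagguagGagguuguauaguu
let-7c-5p: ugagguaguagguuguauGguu

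The sequences are from RefSeq (GRCh38.p14). The substitution against let-7a-5p is G12A in let-7f-5p, U9G in let-7e-5p and A19G in let-7c-5p, so none of them lies in the seed. let-7f-5p is made from a pair of genes, MIRLET7F1 at chr9:94176353-94176374 on the plus strand and MIRLET7F2 at chrX:53557246-53557267 on the minus strand, the latter within the span of the protein-coding gene HUWE1. let-7a-5p is made from 3 genes, of which MIRLET7A1 lies close to MIRLET7F1, at chr9:94175962-94175983 on the plus strand.

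let-7f-5p reached 7670, 13912 and 7162 RPM (reads scaled to a library total of 1000000 over all hairpin rows) in ODD replicates 1 to 3. It reached 17865, 26773 and 17831 RPM in EVEN replicates 1 to 3. Every ODD library was lower than every EVEN library, and the highest ODD library was the deepest of the 6. These levels rest on 83, 494 and 29 reads with ODD and 166, 388 and 85 reads with EVEN probes. The exact Clopper-Pearson 95% interval reached up to 15185 RPM in ODD replicate 2 and down to 14267 RPM in EVEN replicate 3, so these neighbours overlapped within counting error, which is the only error such intervals cover. The mean was 9581 ± 3759 RPM in ODD and 20823 ± 5153 RPM in EVEN captures (SD, n = 3 per set), 2.17-fold higher with EVEN. On the scale of log2(RPM + 10) the difference, ODD minus EVEN, was -1.16 (limma, SE 0.26, 95% interval -1.67 to -0.65, adjusted p = 0.00952). An exact permutation test over the 6 libraries, two-sided, gave p = 0.1, the smallest that 3 against 3 can give. The scrambled library, measured the same way, had 7962 RPM of let-7f-5p from 37 reads (exact 95% interval 5612 to 10958), which lies among the ODD libraries. The call was lost without ODD replicate 1, without ODD replicate 3 or without EVEN replicate 2 (limma, adjusted p = 0.0854, 0.213 and 0.861), without both replicate 3 libraries (adjusted p = 0.189), with a pseudocount of 1 RPM (adjusted p = 0.201) and without the eBayes trend (adjusted p = 0.927). The difference stayed between -1.46 and -0.96 in all 19 other settings, and the adjusted p was under 0.05 in 13 of them.

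let-7a-5p showed no such separation. It had 43245, 50693 and 42233 RPM with ODD probes and 53917, 36917 and 33984 RPM with EVEN probes. The lowest and the highest of the 6 libraries were both EVEN libraries. The log2 difference was 0.15 (limma, 95% interval -0.30 to 0.60, adjusted p = 0.963). Taken within each library, where the library total cancels, let-7f-5p made up 15.1%, 21.5% and 14.5% of the summed let-7f-5p and let-7a-5p reads in ODD replicates 1 to 3. The share was 24.9%, 42.0% and 34.4% in EVEN replicates 1 to 3, above every ODD library. Its mean was 17.0% ± 3.91 with ODD and 33.8% ± 8.59 with EVEN probes (SD, n = 3 per set; p = 0.1 by exact permutation). The share uses the same let-7f-5p reads as the call, so it adds no independent test. The intervals of EVEN replicate 1 (21.6% to 28.4%) and ODD replicate 2 (19.9% to 23.3%) overlapped. In the scrambled library the share was 17.5% (12.6% to 23.2%).

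The shift was not seen in the family as a whole. Taken as 1 row per name in a total over all hairpin rows, the 9 let-7 members together held 8.25% ± 0.867 of the RPM with ODD and 8.44% ± 1.52 with EVEN probes (SD, n = 3 per set; p = 0.9 by exact permutation). Within the family's reads, again with the same let-7f-5p reads, let-7f-5p held 11.4% ± 3.22 with ODD and 25.0% ± 5.74 with EVEN probes (SD, n = 3 per set; p = 0.1 by exact permutation). Of the 9 tested members 1 was called lower and 0 higher, against 1 and 0 of all 237, and that 1 is let-7f-5p itself. A difference above 0 was seen in 6 of the 9, against 131 of all 237. The median difference was 0.16 on the log2(RPM + 10) scale, beside 0.081 over all 237. let-7i-5p, the next most abundant, was steady at 13306, 13631 and 13584 RPM with ODD probes and at 12269, 14353 and 10069 RPM with EVEN probes. let-7e-5p had 5437 ± 2618 and 4318 ± 1762 RPM, and let-7b-5p 3412 ± 129 and 2684 ± 884 RPM with ODD and EVEN probes (SD, n = 3 per set); the sets overlapped for both. Lower on average with ODD probes, as let-7f-5p was, were let-7d-5p (609 ± 387 and 856 ± 394 RPM) and miR-98-5p (210 ± 32.9 and 396 ± 170 RPM). let-7g-5p was higher (1979 ± 926 and 1023 ± 597 RPM; SD, n = 3 per set). Their sets overlapped and none passed (limma, adjusted p = 0.963, 0.963 and 0.886). let-7e-5p, let-7b-5p, let-7c-5p, let-7d-5p, miR-98-5p and let-7g-5p are named with their values already known. let-7c-5p stood at 924, 451 and 5680 RPM with ODD probes and at 538, 759 and 0 RPM with EVEN probes. Its spread came from the shallowest library of each set, with 23 reads in the ODD and 0 in the EVEN one, and it did not pass (limma, adjusted p = 0.517; 0.0285 when every microRNA with a read was tested).

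**Figure D1:**
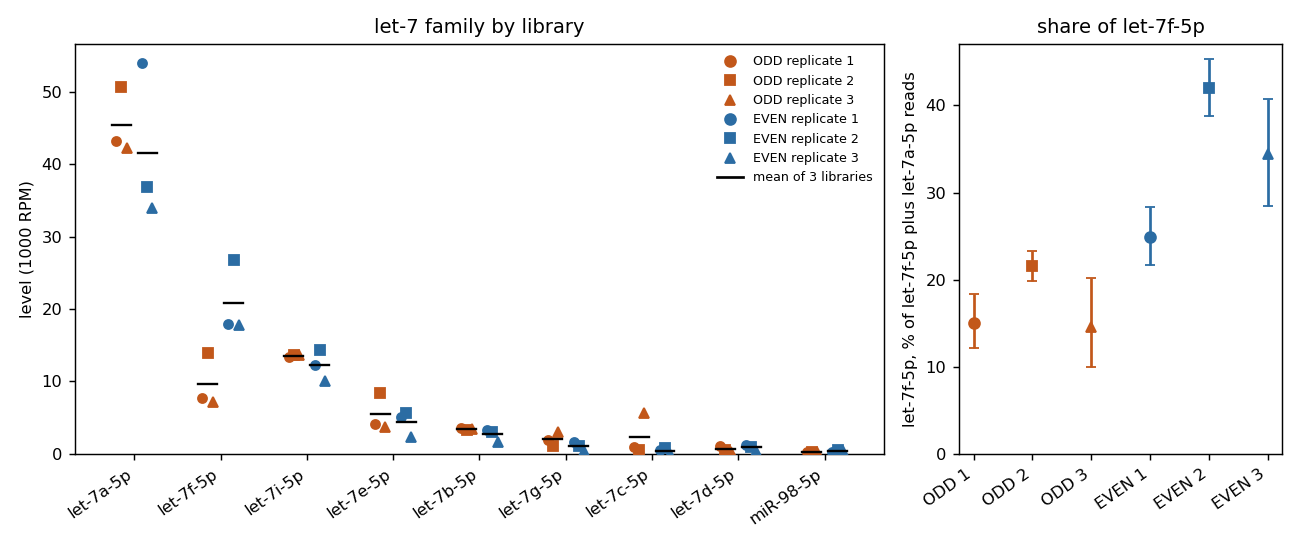
Levels of the let-7 family by library, in units of 1000 RPM (left; points are libraries, black bars the mean of 3) and the share of let-7f-5p in the summed let-7f-5p and let-7a-5p reads in percent (right; bars are exact 95% intervals, counting error only). let-7f-5p is the member whose ODD libraries, 7162 to 13912 RPM, all lie below its EVEN libraries, 17831 to 26773 RPM.

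Other near-identical microRNAs were examined in the same way. Among microRNAs with a RefSeq sequence and a mean of at least 300 RPM, 10 pairs differed by a single base when aligned at the 5′ end, with at most 2 bases of difference in length. The ODD and EVEN libraries were separated for 1 of these pairs, let-7f-5p with let-7a-5p. let-7f-5p had been picked out beforehand by the same reads, so the separation of its pair is not an independent result. miR-27a-3p, made with miR-23a-3p and miR-24-3p from one transcript, differs from miR-27b-3p by U19C and held 8.45% ± 1.89 of the pair's reads with ODD and 9.03% ± 0.991 with EVEN probes. miR-30e-5p differs from miR-30a-5p by C13U and held 16.0% ± 4.53 and 14.3% ± 2.46. miR-107 differs from miR-103a-3p by G22C and held 14.4% ± 5.74 and 17.9% ± 5.52 (SD, n = 3 per set). The exact two-sided permutation p of the 10 pairs ran from 0.1 to 1 before adjustment, and none adjusted over the pairs can fall below 0.1. How reads that match several near-identical members were counted is not given in the sources used here, so the assignment of a read within these pairs is uncertain.

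The most abundant microRNAs were at like levels with both probe sets. miR-92a-3p, of the miR-17-92 cluster, led every library, and its mature sequence is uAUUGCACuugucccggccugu, with the seed in capitals. It held 16.3%, 13.9% and 13.9% of the RPM in ODD replicates 1 to 3 and 14.7%, 14.2% and 15.8% in EVEN replicates 1 to 3. These are shares of 1 hairpin row in a total over all rows. Over 1 row per mature name the share is higher, with 1759 of 7848 reads in ODD replicate 1. The log2 difference of miR-92a-3p was -0.02 with a 95% interval of -0.45 to 0.40 (limma, adjusted p = 0.976). Of the 17 microRNAs with a mean of at least 10000 RPM, 16 had a 95% interval within 2-fold in either direction, and let-7f-5p was the exception. miR-92b-3p, which shares the seed of miR-92a-3p, differed by -0.0044 (-0.46 to 0.45). miR-181a-5p, known from lymphocyte development, differed by -0.08 (-0.55 to 0.38), and miR-191-5p by 0.06 (-0.40 to 0.52). miR-21-5p, which is raised in many tumours, differed by 0.07 (-0.39 to 0.53). miR-100-5p, a repressor of mTOR, differed by -0.03 (-0.49 to 0.44). The intervals of miR-423-5p (-0.74 to 0.20), miR-27b-3p (-0.56 to 0.34) and miR-222-3p (-0.19 to 0.79), which is linked to melanoma growth through KIT and CDKN1B, also held 0. The fit did not pair libraries. Same-numbered libraries differed by -0.27, -0.29 and -0.25 for miR-423-5p and by 0.32, 0.35 and 0.24 for miR-222-3p. For miR-27b-3p they differed by -0.15, -0.11 and -0.076. For the other microRNAs named in this paragraph the sign varied between the numbers. The interval bounds are on RPM, a share of each library's total, and do not bear on how much RNA each probe set captured. The signs of miR-92a-3p, miR-92b-3p, miR-181a-5p, miR-191-5p, miR-21-5p and miR-100-5p turned in at least 1 other setting.

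**Figure D2:**
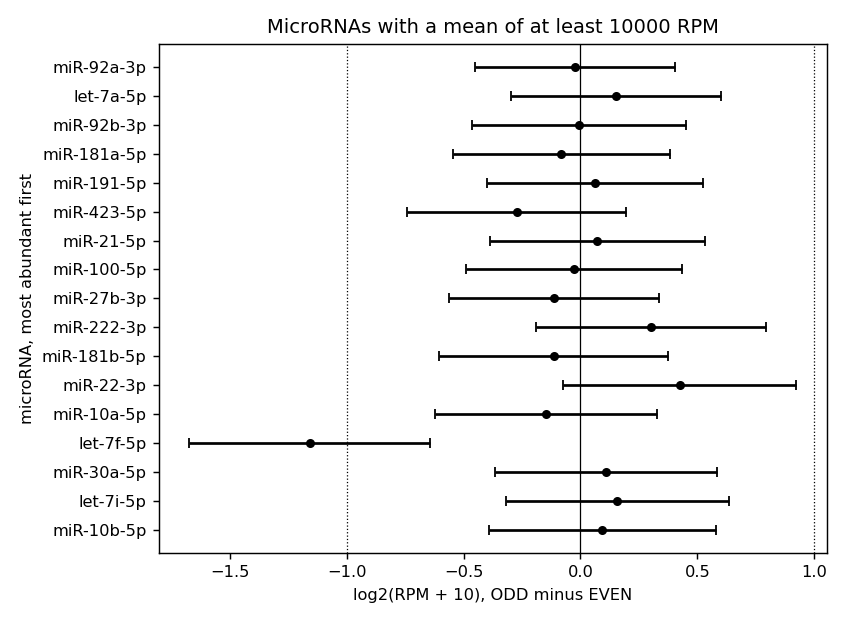
Difference between ODD and EVEN probes on the log2(RPM + 10) scale for the 17 microRNAs with a mean of at least 10000 RPM, with 95% intervals from limma. Dotted lines mark 2-fold in either direction; 16 intervals lie between them, and that of let-7f-5p, -1.67 to -0.65, does not.

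How small a difference could be seen depended on the level. For the 66 microRNAs with a mean of at least 1000 RPM, the median absolute log2 difference was 0.17 and the median residual SD between captures of a set 0.35. Of these 66, 45 had an interval within 2-fold. Among the 55 between 300 and 1000 RPM no interval was that narrow, and the median residual SD was 0.82. Among those under 300 RPM it was 2.12, since 1 read was worth 28.2 to 247 RPM, more than the pseudocount of 10 RPM, and a change from 0 to 1 read is then a large step on the log scale. Over all 237 the median difference was 0.081, with 131 above 0 and 106 below. At an unadjusted p under 0.05, limma gave 4 microRNAs higher and 6 lower with ODD probes.

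**Figure D3:**
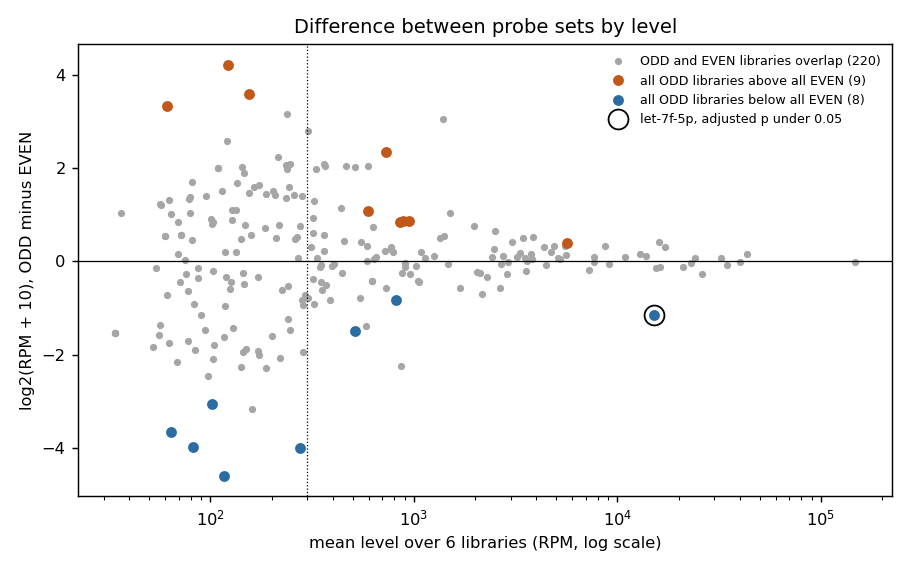
Difference between ODD and EVEN probes on the log2(RPM + 10) scale against the mean level over the 6 libraries (RPM, log scale) for the 237 tested microRNAs. Coloured points are the 9 with all ODD libraries above, and the 8 with all ODD libraries below, all EVEN libraries; the dotted line marks 300 RPM, and the circle marks let-7f-5p.

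Libraries of one probe set were not consistently more alike than libraries of different sets. Over the 66 microRNAs with a mean of at least 1000 RPM, Pearson's r of log2(RPM + 10) was 0.914 to 0.947 for the 3 ODD pairs, 0.870 to 0.954 for the 3 EVEN pairs and 0.761 to 0.968 for the 9 pairs of an ODD with an EVEN library. The highest value, 0.968, was between ODD replicate 2 and EVEN replicate 2, the deepest library of each set. The median was 0.954 for the 3 same-numbered pairs and 0.907 for the 6 other between-set pairs. The lowest value, 0.761, was also of a same-numbered pair, ODD replicate 3 with EVEN replicate 3. The 5 lowest values all involved EVEN replicate 3, and let-7c-5p had 0 reads there. Without let-7c-5p, left out after its values were seen, r was 0.938 to 0.946 within ODD, 0.916 to 0.952 within EVEN and 0.918 to 0.968 between the sets. The medians were 0.946, 0.930 and 0.932, with 0.952 for same-numbered and 0.928 for other between-set pairs. The pairs with EVEN replicate 3 then stood at 0.916 to 0.930 and were still among the 6 lowest of the 15, with a median of 0.920 against 0.946 for the pairs without it. These correlations are across microRNAs of libraries that share one cell line and protocol. The depth over all hairpin rows was 4049 to 35508 reads with ODD and 4767 to 14492 reads with EVEN probes.

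**Figure D4:**
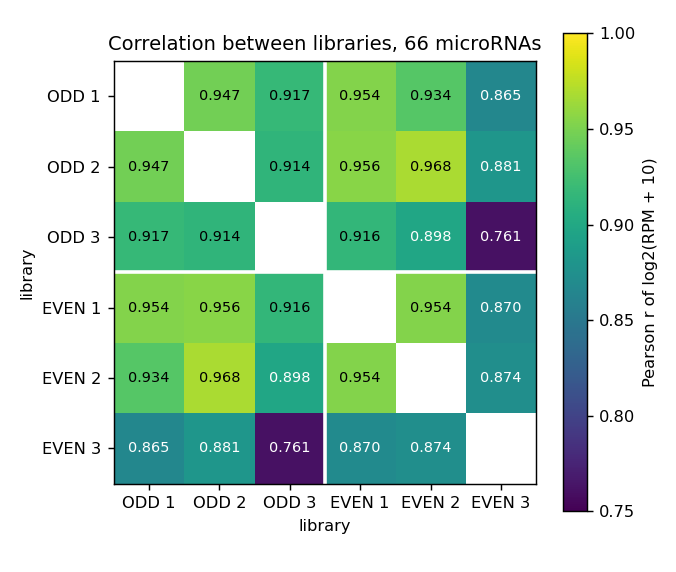
Pearson's r of log2(RPM + 10) between each pair of the 6 libraries over 66 microRNAs with a mean of at least 1000 RPM. The white lines part ODD from EVEN libraries; the between-set values, 0.761 to 0.968, span those within the sets.

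Beyond let-7f-5p, 16 tested microRNAs had ODD and EVEN libraries that did not overlap, and none of them passed. The lowest ODD library stood above the highest EVEN library for 9 of 237 microRNAs (3.8%), and the reverse held for 8 (3.38%), let-7f-5p included. Those with a mean of at least 300 RPM are described one by one. Shown here are the mature sequences that RefSeq gave for them, with that of miR-146a-5p for comparison, so that the seeds, in capitals, can be compared.
miR-24-3p: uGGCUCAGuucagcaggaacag
miR-1246: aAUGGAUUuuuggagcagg
miR-4492: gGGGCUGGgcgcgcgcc
miR-671-3p: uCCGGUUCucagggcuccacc
miR-146b-5p: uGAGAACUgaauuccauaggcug
miR-146a-5p: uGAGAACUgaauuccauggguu

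Their genes lie at chr9:95086064-95086085 (plus strand, within the span of AOPEP) and chr19:13836289-13836310 (minus) for miR-24-3p, chr2:176601024-176601042 (minus) for miR-1246, chr11:118910765-118910781 (plus, within the span of BCL9L) for miR-4492, chr7:151238488-151238508 (plus, within the span of CHPF2) for miR-671-3p and chr10:102436520-102436542 (plus) for miR-146b-5p. Exons and introns were not resolved.

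Higher with ODD probes was miR-24-3p, known as a cell cycle and differentiation regulator, at 1201, 1155 and 1235 RPM against 646, 414 and 1049 RPM with EVEN probes. The ODD libraries were close to each other and the EVEN libraries were spread, and the log2 difference was 0.86 (limma, 95% interval -0.21 to 1.93, adjusted p = 0.951). miR-24-3p comes from the MIR23A and MIR23B clusters, whose other tested members overlapped between the sets, with the exception of miR-27b-3p once RPM was taken over 1 row per mature name. miR-23a-3p had 1131 ± 151 and 1034 ± 443 RPM and miR-27a-3p 1886 ± 505 and 2185 ± 344 RPM with ODD and EVEN probes (SD, n = 3 per set). miR-130a-3p, known from angiogenesis and blood cell formation, had 1109, 676 and 1729 RPM against 538, 621 and 629 RPM (limma, log2 difference 0.86, adjusted p = 0.955). The nearest libraries of miR-130a-3p, 676 and 629 RPM, differed by less than the spread within the ODD set. miR-186-5p had 647, 1014 and 741 RPM against 215, 552 and 420 RPM (limma, log2 difference 1.07, adjusted p = 0.958).

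The remaining microRNAs of this kind are from lists whose annotated sequences resemble other RNA. miR-1246, which matches a stretch of the U2 small nuclear RNA, had 6838, 5295 and 7162 RPM with ODD probes and 5273, 4071 and 5244 RPM with EVEN probes, with nearest libraries of 5295 and 5273 RPM (limma, log2 difference 0.40, adjusted p = 0.963). miR-1273g-3p, derived from an Alu repeat, had 1571, 760 and 988 RPM against 753, 414 and 629 RPM (limma, log2 difference 0.85, adjusted p = 0.963). With RPM computed again over 1 row per mature name, 7 microRNAs were higher and 9 lower in all ODD libraries: the separation of miR-1246 and miR-1273g-3p was lost, and miR-27b-3p became lower in all ODD libraries, at 25994, 28467 and 28562 against 29568, 30254 and 30647 RPM. miR-4492, a GC-rich entry, had 924, 873 and 988 RPM against 753, 828 and 0 RPM, so its log2 difference of 2.34 (limma, adjusted p = 0.886) was set by EVEN replicate 3, which had no read of it. In the scrambled library miR-24-3p and miR-186-5p each had 1506 RPM, miR-130a-3p 861 RPM, miR-1246 6886 RPM, miR-1273g-3p 646 RPM and miR-4492 1291 RPM, from 3 to 32 reads.

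Lower with ODD probes were miR-671-3p and miR-146b-5p. miR-671-3p had 185, 169 and 494 RPM with ODD probes, from 2, 6 and 2 reads, and 646, 552 and 1049 RPM with EVEN probes, from 6, 8 and 5 reads (limma, log2 difference -1.49, adjusted p = 0.951). miR-146b-5p, induced by inflammatory signals and a repressor of IRAK1 and TRAF6, had 462, 535 and 741 RPM against 753, 966 and 1468 RPM (limma, log2 difference -0.84, adjusted p = 0.963). Its relative miR-146a-5p, with the same seed, overlapped between the sets at 5214 ± 695 and 5024 ± 1003 RPM (SD, n = 3 per set). In the scrambled library miR-146b-5p stood at 2367 RPM from 11 reads, above all 6 libraries.

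**Figure D5:**
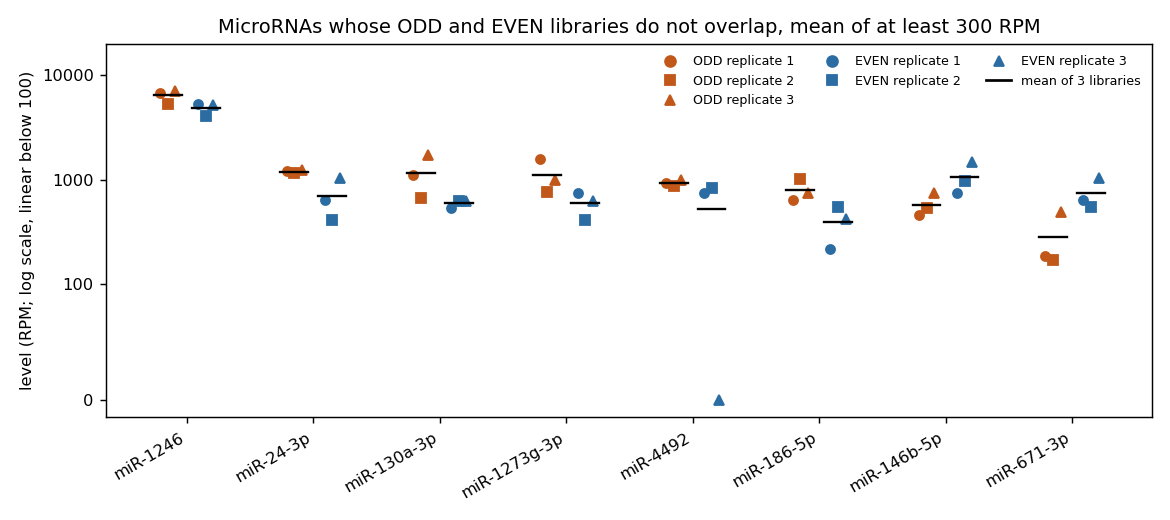
Level in RPM by library (log scale, linear below 100) of the 8 microRNAs other than let-7f-5p that had a mean of at least 300 RPM and ODD and EVEN libraries that did not overlap; black bars are means of 3 libraries. miR-24-3p stands at 1155 to 1235 RPM with ODD and 414 to 1049 RPM with EVEN probes, and miR-4492 has 0 in EVEN replicate 3.

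Under 300 RPM the separations rested on few reads. With reads in ODD libraries alone, miR-141-3p, an epithelial microRNA of the miR-200 family, was counted 2 times per library and miR-4513 was counted 1 time. With reads in EVEN libraries alone, miR-6756-3p had 2, 4 and 1 reads, miR-153-3p, known from neurons, 2, 1 and 1, and miR-194-5p, known from liver and gut, 1 in each. Levels of all 5 were under what 3 reads are worth in the other set, on average 386.4 RPM with EVEN and 367.5 RPM with ODD probes, so no fold is given. None passed (limma, adjusted p = 0.886 to 0.951), while miR-6756-3p, miR-153-3p and miR-194-5p passed without the eBayes trend (adjusted p = 0.00559, 0.0364 and 0.0364). Named after their values were seen, miR-3135b had 3, 3 and 2 reads with ODD and 0, 1 and 0 with EVEN probes, miR-5095 0, 3 and 0 against 1, 3 and 1, and miR-7706 2, 0 and 0 against 2, 6 and 4. In miR-7706 and miR-5095 a pair of libraries with the same number of reads was set apart by depth alone.

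Of 471 mature microRNA names with a read in the 6 libraries, 277 had reads with both probe sets, 135 with ODD alone and 59 with EVEN alone. Summed over all hairpin rows, where a name with several rows enters more than 1 time, ODD libraries held 50379 reads and EVEN libraries 28551. Over 1 row per mature name, replicates 1 to 3 held 7848, 25679 and 3046 reads with ODD and 6595, 10610 and 3524 with EVEN probes. Of the 135 names, 76 were seen in ODD replicate 2 alone, the deepest library. A name seen with one set alone had at most 10 reads with ODD and 7 with EVEN probes. With all hairpin rows of a name counted, the names found in all 6 libraries held at least 96.35% of the RPM of each library.

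The other lists gave no call, and the summed RPM of each list overlapped between the probe sets. When tested microRNAs were grouped by shared seed instead, the sum was separated for the seed GGGGCGG alone. Its members miR-3180-3p, miR-3180 and miR-3196 summed to 3989 ± 1235 RPM in ODD and 6093 ± 1445 RPM in EVEN captures. This group is named after its values were seen, and its sum was not tested. Among single microRNAs, a separation in this direction was seen for 8 of 237 (3.38%). In replicates 1 to 3, miR-3180-3p had 29, 46 and 10 reads with ODD and 27, 36 and 19 with EVEN probes. miR-3180 had 19, 36 and 9 against 21, 31 and 17. Whether the same reads were counted under both names was not tested. The miR-25/92 seed family summed to 192046 ± 19408 RPM in ODD and 194256 ± 17437 RPM in EVEN captures. The miR-181 family summed to 49560 ± 10382 and 53422 ± 14058 RPM. The miR-30 family, known for roles in differentiation, summed to 28989 ± 4512 and 25771 ± 3418 RPM, and the clustered pair miR-221 with miR-222 to 28151 ± 5036 and 25030 ± 1992 RPM (SD, n = 3 per set). These 4 lists were each within the spread of their libraries.

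Smaller families varied more. The miR-103 and miR-107 family, encoded in introns of pantothenate kinase genes, summed to 4635 ± 634 RPM in ODD and 3528 ± 1092 RPM in EVEN captures. The miR-15 and miR-16 family, which represses BCL2 and cyclins, summed to 6452 ± 1841 and 5157 ± 761 RPM. The miR-130 and miR-301 family summed to 1940, 1436 and 4693 RPM with ODD and 1507, 1518 and 1468 RPM with EVEN probes, and the log2 difference of the sum was 0.65 with all libraries and 0.16 without ODD replicate 3, the shallowest. All 4 tested members had a difference above 0, against 131 of all 237, with a median of 1.14; miR-130a-3p was the member whose libraries did not overlap. The miR-148 and miR-152 family summed to 647, 760 and 1976 RPM with ODD and 646, 828 and 210 RPM with EVEN probes, so its sets parted only in replicate 3, the shallowest library of each.

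Lists with more members of unusual origin were read against the same background. Of 16 tested Alu-derived entries, 10 had a difference above 0, against 131 of all 237; 2 were higher and 1 lower in all ODD libraries, against 9 and 8 of 237 (3.8% and 3.38%); and the median difference was 0.63, against 0.081. Of 18 tested entries that resemble U2, rRNA or GC-rich fragments, 10 had a difference above 0 and 2 were higher in all ODD libraries, beside the same 131 and 9 of 237, and the median was 0.23. Their sums, 11693 ± 1641 against 10291 ± 2504 RPM and 20635 ± 2628 against 18934 ± 3199 RPM, differed by less than the SD within the EVEN set (SD, n = 3 per set).

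The cell type was checked on marker microRNAs. miR-204-5p, made from an intron of TRPM3 in pigment cells, stood at 2044 ± 605 RPM in ODD and 2527 ± 358 RPM in EVEN libraries (SD, n = 3 per set). Of the 7 pigment cell and melanoma markers listed, 2 had reads, miR-204-5p and miR-509-3p, the latter with 5 reads in all. Of the 7 blood cell, 6 epithelial, 4 muscle and 2 neuronal markers, 5, 3, 2 and 2 had reads. Their summed levels were 375 ± 130 against 279 ± 321 RPM for blood cells, 323 ± 154 against 152 ± 52.5 RPM for epithelium, 368 ± 337 against 386 ± 218 RPM for muscle and 355 ± 228 against 398 ± 46.5 RPM for neurons (SD, n = 3 per set). The liver marker miR-122-5p had no reads. None of the marker sums was separated between the sets.

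The mature sequences of the separated microRNAs were described for features that the comparison did not use. RefSeq sequences were found for 195 of the 237 tested microRNAs, for 6 of the 9 with higher and 7 of the 8 with lower levels in all ODD libraries. All 7 of the lower group begin with U, against 2 of the 6 in the higher group and 47.2% of the 195. The median GC content was 45.5% in the lower group, 59.1% in the higher group and 50.0% among the 195. Across the 195 microRNAs, which are not independent of each other, the GC content and the log2 difference had a Pearson's r of -0.083; over the 55 with a mean of at least 1000 RPM it was -0.19. Averaged over reads, the GC content of the libraries was 49.7% to 50.9% with ODD and 49.6% to 51.1% with EVEN probes. The groups are small, and the probe sequences, to which the microRNAs could be compared, were not used here.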

How the data were processed

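Small RNA from miR-CATCHv2.0 captures was sequenced, and the authors deposited RPM values (reads scaled to a library total of 1000000) per hairpin row, written with decimal commas. CASAVA 1.8 and cutadapt 1.2.1 are named in the submitters' processing notes; an aligner, a counting rule and a build were not found in the labels or headers. Dividing each RPM by its library's smallest step gave whole reads (100% of values within 1e-06 reads). The depths were 4049 to 35508 reads, summed over all hairpin rows. Rows of one mature name held nearly the same count (466, 468 and 466 reads for the rows of let-7a-5p in ODD replicate 1). Such a name therefore enters that sum, and the RPM total, more than 1 time. Over 1 row per mature name the depths were 3046 to 25679 reads. Without molecular identifiers PCR copies cannot be told from separate molecules, so exact Clopper-Pearson 95% intervals cover counting error only.

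Of the rows that share a mature name, the one with the highest summed RPM was kept (498 rows, 480 names). The 237 names with at least 10 RPM in at least 3 of the 6 libraries were tested on log2(RPM + 10) with limma 3.58.1 in R 4.3.3 (eBayes with trend, two-sided, Benjamini-Hochberg adjustment over all 237, threshold 0.05). Single values were compared with exact permutation tests over libraries. Named were each microRNA that passed; the 10 with the largest difference in each direction among those with a mean of at least 300 RPM whose sets did not overlap; those with reads in all 3 libraries of 1 set and 0 in the other; the 10 most abundant; and up to 3 of the most abundant members of each list. Others are said to be chosen after their values were seen, or are shown for their sequence beside a named one. The members and the 25 lists were chosen with earlier results of these data known. Sequences and positions are from RefSeq (GRCh38.p14). ODD and EVEN libraries of one number were not treated as pairs. Their deviations from the set means correlated at -0.054, 0.059 and 0.013 over the 237 microRNAs. Many of these microRNAs had few reads, so the correlations cannot tell whether the abundant ones are paired. With the replicate number as a block, the SE fell from 0.26 to 0.14 for let-7f-5p and from 0.23 to 0.14 for miR-100-5p.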

Additional observations from a re-analysis of the deposited data

How the results depend on the processing

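The call of let-7f-5p held in 13 of 19 alternatives, with the log2 difference between -1.46 and -0.96 and the adjusted p (limma) between 0.000695 and 0.927. The call was lost with a pseudocount of 1 RPM (-1.16, SE 0.28) and without the eBayes trend (-1.16, SE 0.46). In both the difference was as in the main fit (-1.16, SE 0.26) and the SE was larger; why it was larger was not tested. With fewer libraries the call was lost without both replicate 3 libraries (-1.08, chosen after seeing the data) and without some single replicates (-1.46 to -0.96 over those left out in turn). Calls lower with ODD probes numbered 1, against 0 with a pseudocount of 1 RPM, 3 without the trend, 0 without both replicate 3 libraries and 0 to 1 with 1 replicate left out. Calls higher numbered 0, against 1 with no filter, let-7c-5p. With the replicate number as a block, let-7f-5p kept its log2 difference of -1.16 (limma, adjusted p = 0.0221) and the calls were 0 higher and 1 lower. Of all 71 named and tested microRNAs, 40 turned sign in at least 1 setting. Of the 24 among them whose difference is given, 6 turned sign, all abundant and near 0. Leaving out 1 replicate gave -0.20 to 0.090 for miR-100-5p, -0.26 to 0.12 for miR-181a-5p, -0.080 to 0.26 for miR-191-5p, -0.027 to 0.25 for miR-21-5p, -0.099 to 0.021 for miR-92a-3p and -0.11 to 0.18 for miR-92b-3p. Without both replicate 3 libraries the values were 0.11 for miR-100-5p, -0.098 for miR-21-5p, 0.060 for miR-92a-3p and 0.091 for miR-92b-3p. voom on whole reads, added after seeing the data, gave 0.013 for miR-100-5p, and miR-92b-3p stood at 0.043 with quantile normalization and 0.083 with log2 depth as a covariate. A planned count model was not run, and voom took its place. Depth limits microRNAs under 1000 RPM most, since 1 read is worth 28.2 to 247 RPM.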
